A study of Homo sapiens with 12 samples.

Results

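The genes described here are 50 genes that encode the DNA replication machinery and its supply of nucleotides and histones, measured in 2 human uveal melanoma cell lines with and without overexpression of CANT1, a long noncoding RNA of the CASC15 locus. They were taken as a fixed list of gene symbols, and each was read through 1 probe set of the Affymetrix PrimeView array, the one annotated to that symbol alone with the highest mean over the 12 arrays. All 50 were found among 18132 genes on the array, and all 50 passed the filter on dim genes in each fit. FAM111B passed it narrowly, with a signal of at least 100 on 5 of 12 arrays. Beside the 50 probe sets in use, the same genes had 65 other probe sets bright enough to read.

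Before S phase, ORC, CDC6 and CDT1 load the MCM2-7 helicase onto origins, and in S phase MCM10, CDC45 and the GINS complex turn it into an active fork. Polymerases alpha, delta and epsilon copy the strands, held by the PCNA clamp that RFC loads, and FEN1 and LIG1 join the lagging strand pieces. Transcription of most of these genes is timed to late G1 and S phase by E2F factors, so their summed RNA is widely used as a sign of proliferating cells in tumours. In bulk RNA, fewer cells in S phase and less RNA per cell cannot be told apart.

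The 4 groups are wild type MUM2B, MUM2B overexpressing CANT1, wild type OCM1 and OCM1 overexpressing CANT1, with 3 arrays each. The replicate 1 arrays carry a growth label in which CANT1 cells were kept in medium with puromycin, and replicates 2 and 3 a label of DMEM with 10% fetal bovine serum, so each group holds 1 array of the first labelled set and 2 of the second. The controls are wild type cells and no empty vector is described, so an effect of CANT1 cannot be told apart from one of vector or selection. The labels do not say that replicates are separate cultures, so p-values here reflect array-to-array spread alone, and that spread may be technical. Levels are log2 of scaled signal plus 32, differences are on that scale, which understates the fold of dim genes, ± is the standard error of the limma fit unless SD is written, and a gene is called at a Benjamini-Hochberg adjusted p under 0.05 over all genes tested.

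The replicate 1 arrays differed from the others before any gene was compared. The 3' to 5' difference of the ACTB control probe sets, which grows as RNA is shorter, was 2.15 to 2.51 log2 units on replicate 1 and 0.473 to 0.911 on replicates 2 and 3. The array of wild type OCM1 replicate 1 stood apart: its correlations across genes with the rest of its line averaged 0.828, where every other array averaged 0.936 to 0.978. Melanocyte markers were summed as a check of the label: OCM1 arrays held a summed signal of 81507 to 93123 in CANT1 cells and 15422 to 84658 in wild type cells, the lowest being replicate 1. MUM2B held 838 to 1191, with 4 of 11 pigment markers above a signal of 100 on every array and MLANA, which encodes Melan-A, at 36.3 to 55.5, so this line carried little RNA of pigment cell markers. Results are therefore given for all arrays, for replicates 2 and 3, and for replicate 1 as values with no test.

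On replicates 2 and 3 (2 arrays per group), DNA replication genes fell in CANT1 cells of both lines. In MUM2B 35 of 50 were called lower and 0 higher, where 10.7% of 12105 genes tested were called lower and 14.4% higher. In OCM1 22 of 50 were called lower and 1 higher, against 9.63% and 13.7% of all genes. The median difference over the 50 genes was −0.56 in MUM2B and −0.37 in OCM1, while over all genes tested it was 0.0046 and 0.038. In MUM2B both CANT1 arrays lay below both wild type arrays for 44 of 50 genes (30.2% of all genes tested). In OCM1 they lay below for 43 (27.5% of all genes) and above for 2 (36.3%).

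The 2 CANT1 arrays of MUM2B were not alike in depth of the change: the median level of the 50 genes was 10.53 and 10.43 in wild type replicates 2 and 3, 10.12 in CANT1 replicate 2 and 9.85 in CANT1 replicate 3. Without CANT1 replicate 3, 14 genes were called lower in MUM2B and the median difference was −0.32. Without wild type replicate 2, 16 were called. In OCM1 the same medians were 10.18 and 10.18 in wild type and 9.60 and 9.71 in CANT1 cells. There, 12 members were called without wild type replicate 2, 12 without wild type replicate 3 and 11 without CANT1 replicate 2. The ACTB difference, 0.526 and 0.584 in MUM2B CANT1 cells against 0.550 and 0.473 in wild type, was 0.911 and 0.845 in OCM1 CANT1 cells against 0.750 and 0.666 in wild type, and its part in the OCM1 result was not tested. On the MUM2B arrays of replicates 2 and 3, markers of other cell types were called higher in CANT1 cells: CDH5 (0.72 ± 0.15) and KDR (0.42 ± 0.10) among 4 endothelial markers tested, KRT19 (0.61 ± 0.15) among 4 epithelial ones and CD68 (0.60 ± 0.18), the 1 immune marker tested. The other epithelial markers tested lay below zero and did not pass: KRT5 at −0.36, KRT8 at −0.19 and KRT18 at −0.0064. KDR and CD68 were dim on these arrays, at signals of 126.3 to 198.5 and 126.4 to 295.8. None of these endothelial, epithelial and immune lists had a member called lower in MUM2B or called in either direction in OCM1. Of 10 pigment cell markers tested, 2 were called higher in OCM1, S100B (0.56 ± 0.12) and PMEL (0.46 ± 0.094). TYRP1 (−2.11 ± 0.14) and SLC45A2 (−0.51 ± 0.14) were called lower there. In MUM2B PMEL alone of that list was called, higher (0.38 ± 0.094). The part of cell type markers in the result was not tested.

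**Figure D1:**
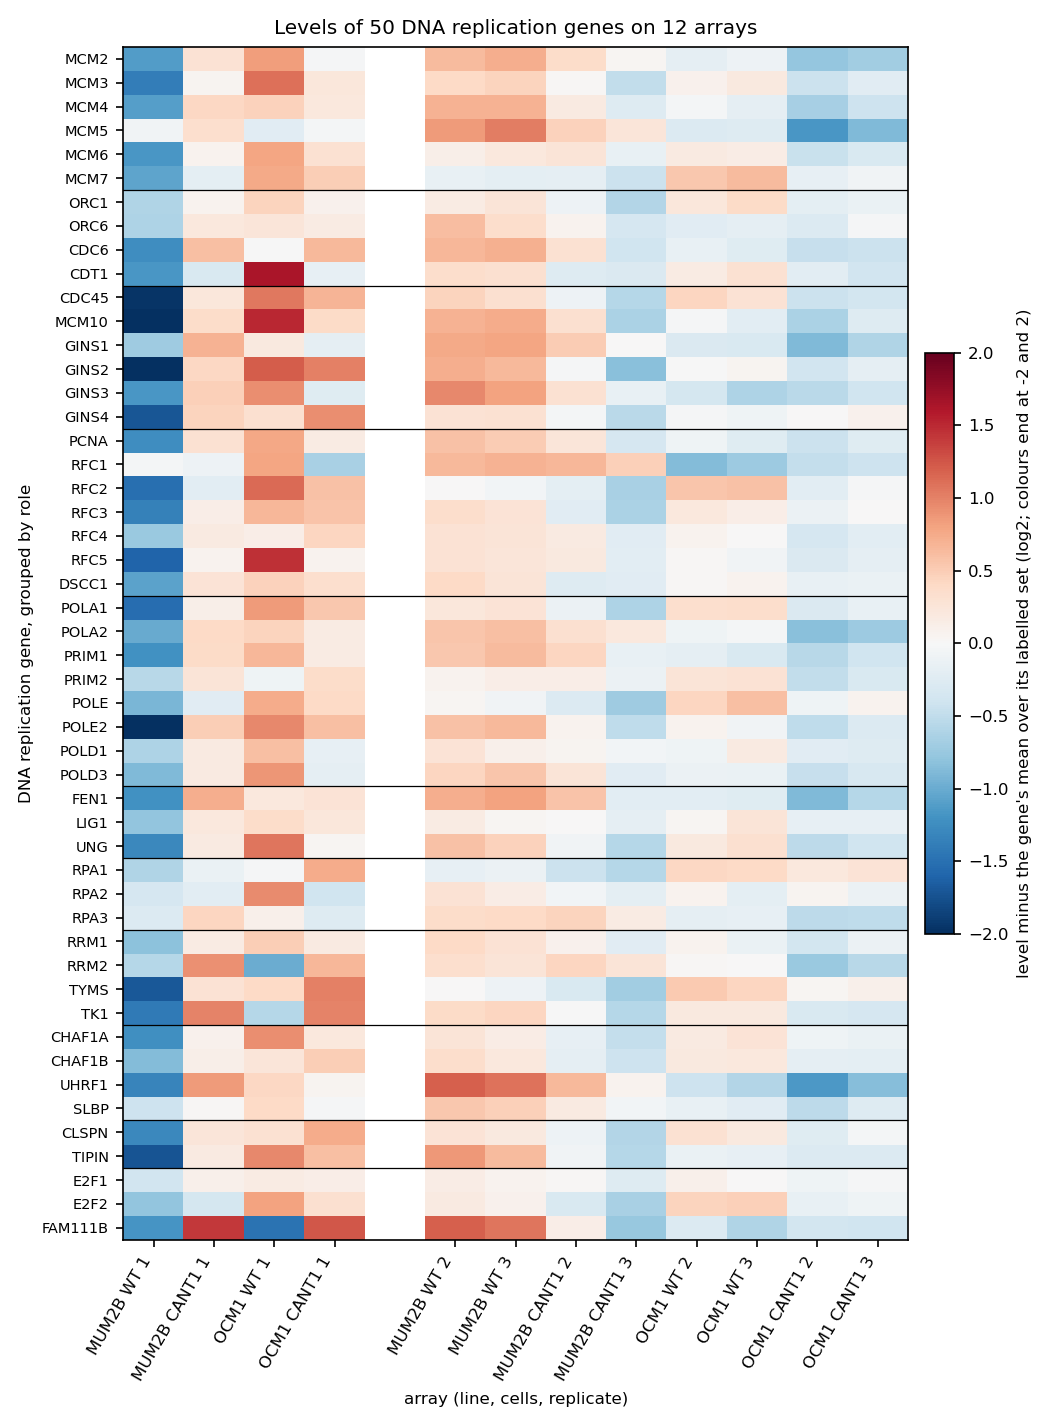
Level of each of the 50 genes (rows, grouped by role) on each of the 12 arrays (columns), shown as the log2 level minus the gene's mean over the arrays of its labelled set, replicate 1 at the left and replicates 2 and 3 at the right. On replicates 2 and 3 the CANT1 columns of each line are mostly bluer than its wild type columns, and the wild type MUM2B replicate 1 column is the lowest of its set for 45 of 50 genes.

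Over all 12 arrays no member passed in either line. In MUM2B 0 of 12715 genes were called (0%), with 220 at an unadjusted p under 0.05, none of them a member. In OCM1 0.118% of genes were called, none a member. The medians were 0.12 in MUM2B, with 35 genes above zero, and −0.36 in OCM1, with 43 below zero. In MUM2B the smallest p-values belonged to RRM2 (0.53 ± 0.44), E2F2 (−0.26 ± 0.26) and RPA3 (0.19 ± 0.19), each at a limma adjusted p of 1.00. In OCM1 they belonged to MCM7 (−0.56 ± 0.26, adjusted p = 0.544), E2F2 (−0.54 ± 0.26, 0.561) and CDT1 (−0.94 ± 0.45, 0.563). The difference between the lines' effects called 0.0472% of all genes and no member, with MCM7 (−0.76 ± 0.36), RPA3 (−0.53 ± 0.27) and POLD1 (−0.58 ± 0.34) at the smallest p-values. Single arrays decided these medians: without wild type replicate 1 the MUM2B median was −0.56, and without wild type replicate 1 the OCM1 median was −0.10.

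Because many members moved together, their promoters were searched for the letters that E2F factors bind. RefSeq windows of GRCh38.p14, from 250 bases before to 50 after the gene's start, were at hand for 42 of the 50, and not for GINS4, DSCC1, RPA3, MCM5, POLD3, RPA2, MCM4 and FAM111B. A gene with several annotated starts was read at 1 of them, the one at the lowest coordinate (35116 windows for 27305 genes). That start need not be the main one, and the other starts were not searched. The 8-letter strings TTTCCCGC, TTTCGCGC, TTTGCCGC and TTTGGCGC, on either strand, occurred in 20 of 42 members (47.6%), in 3.27% of the windows of all 27305 genes and in 5.16% of those of 9930 genes tested here. CCAAT, the letters bound by NF-Y, occurred on either strand in 24 members (57.1%), in 35.6% of all genes and in 35.9% of the genes tested. TTTGAA, the core of the CHR element of mitotic genes, occurred in 1 member (2.38%), in 15.6% of all genes and in 9.93% of the genes tested. Palindromic pairs of E2F strings overlap each other and were counted once per gene. Letters in a window are a description of sequence and not a binding site.

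Stretches of 60 bases upstream of the start are shown, 5' to 3' on the gene's own strand, for the 4 members with the largest called differences in each line that had a window (UNG is among them in both) and for RFC1, the member called higher. E2F strings are in capitals, and where there is none the stretch ends at the start. The genes are GINS2 (chr16:85688958-85689017, minus strand), TIPIN (chr15:66356720-66356779, minus), MCM10 (chr10:13161498-13161557, plus), UNG (chr12:109097537-109097596, plus), CDC45 (chr22:19479406-19479465, plus), POLA2 (chr11:65261877-65261936, plus), MCM7 (chr7:100100530-100100589, minus) and RFC1 (chr4:39366363-39366422, minus).
GINS2: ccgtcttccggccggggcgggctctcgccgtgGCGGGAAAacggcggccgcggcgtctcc
TIPIN: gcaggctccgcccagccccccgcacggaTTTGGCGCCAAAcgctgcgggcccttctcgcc
MCM10: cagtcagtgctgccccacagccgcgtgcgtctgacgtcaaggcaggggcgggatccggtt
UNG: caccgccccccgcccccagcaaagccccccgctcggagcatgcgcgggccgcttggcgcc
CDC45: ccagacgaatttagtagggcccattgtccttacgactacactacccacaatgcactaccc
POLA2: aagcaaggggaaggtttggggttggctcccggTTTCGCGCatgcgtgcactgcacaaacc
MCM7: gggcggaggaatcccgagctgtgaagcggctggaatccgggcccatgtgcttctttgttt
RFC1: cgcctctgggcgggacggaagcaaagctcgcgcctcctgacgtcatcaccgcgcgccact
GINS2 holds TTTCCCGC on the opposite strand, TIPIN holds 2 overlapping copies of TTTGGCGC, and POLA2 holds TTTCGCGC. MCM10, UNG, CDC45, MCM7 and RFC1 held none of the 4 strings in the whole window, so large falls occurred with and without these letters. GINS3, which was at 0.013 in OCM1, held TTTCCCGC.

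Of the 20 members with E2F letters, 17 were called lower in MUM2B and 10 in OCM1, with medians of −0.61 and −0.42. Of the 22 whose window lacked them, 12 and 9 were called lower, with medians of −0.45 and −0.33. The ranges overlapped throughout: −1.12 to −0.11 with the letters and −0.86 to 0.054 without them in MUM2B, and −0.72 to 0.013 against −0.76 to 0.35 in OCM1.

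MCM2 to MCM7, the replicative helicase, form the ring that unwinds the double helix. In OCM1 all 6 subunits were called lower, between −0.76 for MCM5 and −0.43 for MCM4, with a median of −0.56. In MUM2B 4 of 6 were called lower, and MCM6 (−0.11 ± 0.13) and MCM7 (−0.14 ± 0.10) were not. MCM5 had levels of 8.66 and 8.68 in wild type OCM1 and 7.78 and 8.05 in CANT1 cells, and 9.79 and 9.96 and 9.40 and 9.19 in the same MUM2B groups. The groups did not overlap in either line, and MCM5 fell 1.69-fold in OCM1 (log2 −0.76 ± 0.12, adjusted p = 0.00121) and 1.49-fold in MUM2B (−0.58 ± 0.12, 0.00582). MCM7 (probe set 11729603_a_at) had levels of 13.25 and 13.34 in wild type OCM1 and 12.54 and 12.64 in CANT1 cells, and fell by 0.71 ± 0.10 (adjusted p = 0.000846). In MUM2B its levels were 12.56 and 12.52 in wild type and 12.52 and 12.28 in CANT1 cells, where the CANT1 replicate 2 array lay between the wild type arrays. The 2 effects differed by −0.57 ± 0.15 (OCM1 minus MUM2B, adjusted p = 0.019), and the 3 other MCM7 probe sets gave the same signs in both lines.

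Origin licensing genes, which mark where replication may start, were called lower at 4 of 4 in MUM2B and at 2 of 4, ORC1 and CDT1, in OCM1. CDT1, the loader of the MCM ring, had levels of 9.92 and 9.90 in wild type MUM2B and 9.32 and 9.29 in CANT1 cells, and 9.73 and 9.87 and 9.37 and 9.19 in OCM1. It fell 1.52-fold in MUM2B (adjusted p = 0.00191) and 1.44-fold in OCM1 (0.00342). The MUM2B fall was not shared by its other bright probe sets, which stood at −0.0021 and −0.20 there and at −0.45 and −0.72 in OCM1. CDC6, the ATPase that works with CDT1, fell by 0.74 ± 0.17 in MUM2B and was at −0.25 ± 0.17 in OCM1 (adjusted p = 0.341). The other CDC6 probe set stood at −0.44 in MUM2B and −0.64 in OCM1, so which line fell more depends on the probe set. ORC6, the smallest ORC subunit, had levels of 11.68 and 11.42 in wild type MUM2B and 11.15 and 10.73 in CANT1 cells, but 10.85 and 10.90 and 10.80 and 11.04 in OCM1, where the groups overlapped. Its effects of −0.61 ± 0.15 and 0.047 ± 0.15 differed by 0.66 ± 0.21 (adjusted p = 0.0408).

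Helicase activation was the role with the largest median change in MUM2B among those of 3 or more genes, −0.76, with all 6 genes called lower. In OCM1 its median was −0.32, with CDC45 and GINS1 called. GINS2 (probe set 11743513_a_at), a subunit of the GINS complex, had levels of 10.31 and 10.23 in wild type MUM2B and 9.55 and 8.74 in CANT1 cells. It fell 2.17-fold there (log2 −1.12 ± 0.20, adjusted p = 0.00285), with no overlap. In OCM1 its levels were 9.57 and 9.64 and 9.20 and 9.40, a difference of −0.31 ± 0.20 that did not pass (0.288), and the test of the line difference gave 0.81 ± 0.28 with an adjusted p of 0.0599. Its partners GINS3 and GINS4 fell in MUM2B by 0.80 ± 0.15 and 0.59 ± 0.14, and were at 0.013 ± 0.15 and 0.10 ± 0.14 in OCM1. For both the lines differed, by 0.81 ± 0.21 and 0.69 ± 0.20 (adjusted p = 0.0177 and 0.0284). GINS3 levels in MUM2B were 10.03 and 9.88 in wild type and 9.38 and 8.94 in CANT1 cells, while in OCM1 they were 8.73 and 8.46 and 8.53 and 8.68, which overlapped. GINS4 levels were 9.86 and 9.87 and 9.53 and 9.03 in MUM2B, again with no overlap, and 9.54 and 9.48 and 9.57 and 9.65 in OCM1.

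CDC45, which joins MCM2-7 and GINS in the active helicase, fell in both lines. Its levels were 9.55 and 9.43 in wild type MUM2B, 9.002 and 8.54 in MUM2B CANT1, 9.53 and 9.39 in wild type OCM1 and 8.68 and 8.73 in OCM1 CANT1 cells. The differences were −0.72 ± 0.14 (adjusted p = 0.00409) and −0.76 ± 0.14 (0.00269), and the lines' effects differed by −0.038 ± 0.19, which did not pass (0.918). MCM10, which helps to start the fork, had levels of 9.86 and 9.91 in wild type MUM2B and 9.49 and 8.54 in CANT1 cells, where replicate 3 was far below replicate 2. It fell 1.82-fold (log2 −0.86 ± 0.24, adjusted p = 0.0216). This call was lost without CANT1 replicate 3, where the difference was −0.39, and without either wild type array (adjusted p up to 0.154). In OCM1 its levels were 9.14 and 8.96 and 8.54 and 8.91, with a difference of −0.33 ± 0.24 that did not pass (0.355).

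**Figure D2:**
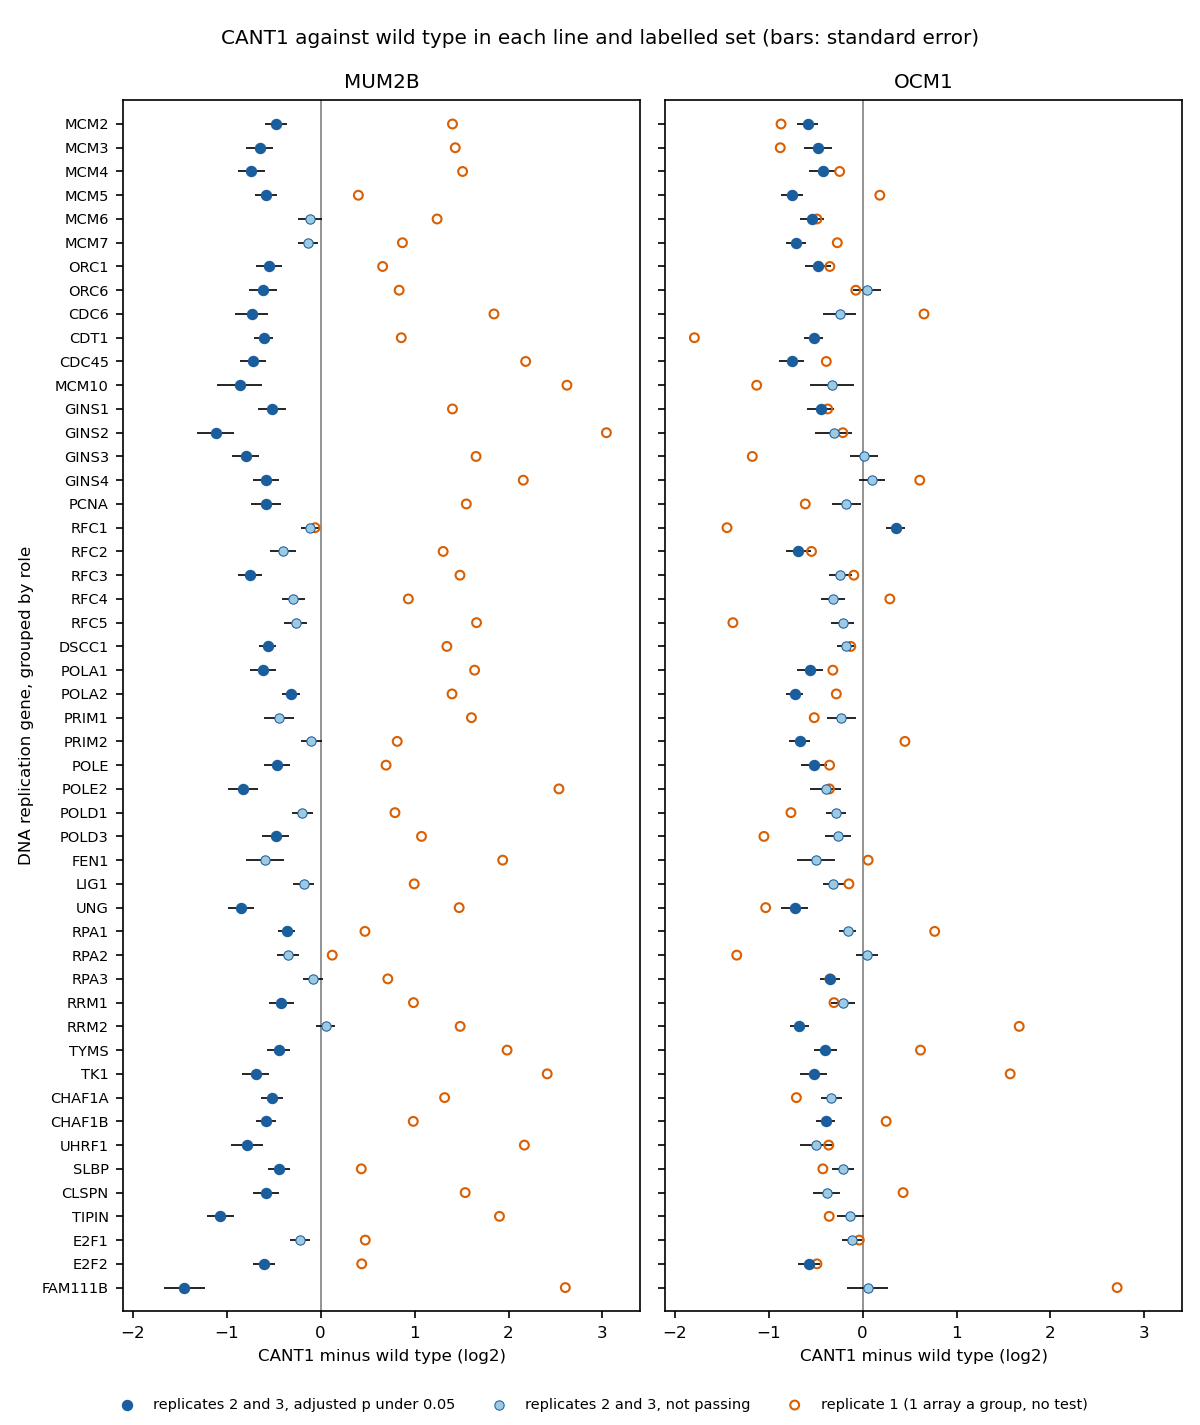
CANT1 minus wild type (horizontal axis, log2) for each of the 50 genes, MUM2B at the left and OCM1 at the right. Filled points are replicates 2 and 3 with the standard error, dark where the adjusted p was under 0.05, and open points are the single replicate 1 arrays. In MUM2B 35 dark points lie left of zero and 49 open points lie right of it, while in OCM1 22 dark points lie left of zero and 1, RFC1, right of it.

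Among the sliding clamp and its loaders in OCM1, RFC2 was the 1 gene of 7 called lower and RFC1 the 1 called higher. In MUM2B 3 of 7 were called lower: PCNA, the clamp that tethers polymerases (−0.59 ± 0.16), RFC3 (−0.75 ± 0.13) and DSCC1 (−0.56 ± 0.091). RFC3, a small subunit of the clamp loader, had levels of 11.44 and 11.36 in wild type MUM2B and 10.85 and 10.44 in CANT1 cells, and of 11.30 and 11.22 and 10.96 and 11.09 in OCM1. RFC2, another small subunit, had levels of 10.65 and 10.68 in wild type OCM1 and 9.89 and 10.07 in CANT1 cells and fell 1.61-fold (adjusted p = 0.00432), with −0.40 ± 0.13 in MUM2B just missing the threshold (0.0508). RFC1, the large subunit, went the other way in OCM1, with levels of 8.62 and 8.77 in wild type and 9.01 and 9.08 in CANT1 cells, a rise of 0.35 ± 0.10 (adjusted p = 0.027). This call was lost without wild type replicate 2 and without either CANT1 array (adjusted p up to 0.166), and its 2 other probe sets stood at 0.24 and 0.086. In MUM2B it was at 10.14 and 10.19 and 10.15 and 9.96, and the lines' effects differed by 0.46 ± 0.14 (0.0393).

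Among DNA polymerases and primase, 5 of 8 genes were called lower in MUM2B and 4 of 8 in OCM1. POLA1, POLA2 and POLE, subunits of polymerases alpha and epsilon, were called in both. POLA2, the accessory subunit of polymerase alpha, had levels of 9.44 and 9.48 in wild type OCM1 and 8.69 and 8.79 in CANT1 cells, and 10.08 and 10.12 and 9.84 and 9.73 in MUM2B. It fell by 0.72 ± 0.092 in OCM1 (adjusted p = 0.000331) and by 0.32 ± 0.092 in MUM2B (0.0286), and the difference between the lines was −0.41 ± 0.13 (0.0451). That difference no longer passed with any one of the 8 arrays left out or with the replicate block (adjusted p up to 0.145). PRIM2, the large primase subunit, fell from 9.39 and 9.42 to 8.64 and 8.82 in OCM1 (−0.67 ± 0.11, adjusted p = 0.00134). It had 9.20 and 9.26 in wild type and 9.25 and 9.01 in CANT1 cells of MUM2B, where the groups overlapped, and the lines differed by −0.57 ± 0.15 (0.0212).

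POLE2, the second subunit of polymerase epsilon, was the polymerase gene with the largest difference in MUM2B. Its levels were 9.86 and 9.91 in wild type and 9.34 and 8.77 in CANT1 cells there, a 1.78-fold fall (adjusted p = 0.00444), and 9.34 and 9.20 against 8.76 and 8.99 in OCM1 (−0.39 ± 0.16, 0.102). POLE, the catalytic subunit, had levels of 9.61 and 9.51 and 9.31 and 8.87 in MUM2B and of 10.00 and 10.18 and 9.495 and 9.65 in OCM1, and was called lower in both lines. POLD1, the catalytic subunit of polymerase delta, had levels of 9.93 and 9.76 and 9.70 and 9.60 in MUM2B and of 9.57 and 9.83 and 9.43 and 9.40 in OCM1. Its differences were −0.19 ± 0.11 and −0.28 ± 0.11, and it passed in neither line.

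UNG, the glycosylase that removes uracil from new DNA, fell in both lines with no overlap between groups. Its levels were 10.75 and 10.63 in wild type MUM2B and 10.09 and 9.60 in CANT1 cells, and 10.36 and 10.48 and 9.63 and 9.76 in OCM1. The folds were 1.80 (adjusted p = 0.00236) and 1.65 (0.00433). The flap endonuclease FEN1 (−0.59 ± 0.20 in MUM2B and −0.50 ± 0.20 in OCM1) and the ligase LIG1 (−0.18 ± 0.11 and −0.31 ± 0.11) did not pass in either line.

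Of the 3 subunits of RPA, which coats single-stranded DNA at the fork, RPA1 was called lower in MUM2B (−0.36 ± 0.092) and RPA3 in OCM1 (−0.35 ± 0.11). RPA1 levels were 12.20 and 12.24 and 11.93 and 11.79 in MUM2B and 12.77 and 12.76 and 12.58 and 12.63 in OCM1. RPA3 levels were 11.44 and 11.48 and 11.52 and 11.24 in MUM2B, which overlapped, and 10.90 and 10.92 and 10.56 and 10.56 in OCM1, which did not. Neither difference between lines passed (0.20 ± 0.13 for RPA1 and −0.27 ± 0.15 for RPA3, adjusted p = 0.31 and 0.226).

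Of the 4 genes of deoxynucleotide supply, 3 were called lower in each line on the probe sets in use, all but RRM2 in MUM2B and all but RRM1 in OCM1. RRM2, the regulated subunit of ribonucleotide reductase, had levels of 12.27 and 12.19 in wild type MUM2B and 12.37 and 12.21 in CANT1 cells, and of 11.97 and 11.95 and 11.19 and 11.38 in the same OCM1 groups. The MUM2B groups overlapped (0.054 ± 0.10), whereas in OCM1 RRM2 fell 1.59-fold (−0.67 ± 0.10, adjusted p = 0.000972), and the effects differed by −0.73 ± 0.14 (0.00544). A second bright RRM2 probe set read the reverse. Its levels were 11.81 and 11.75 in wild type MUM2B and 11.50 and 10.81 in CANT1 cells, and 10.06 and 9.58 and 9.81 and 10.21 in OCM1. Its differences were −0.63 and 0.19, and the line difference turned sign to 0.82, so no direction is settled for RRM2 in either line. Its partner RRM1 was called lower in MUM2B (−0.42 ± 0.13) and not in OCM1 (−0.21 ± 0.13). The thymidylate synthase TYMS and the salvage kinase TK1 were called lower in both lines, TYMS by 0.45 ± 0.12 and 0.40 ± 0.12 and TK1 by 0.69 ± 0.15 and 0.52 ± 0.15. TK1 levels were 12.21 and 12.26 in wild type MUM2B, 11.82 and 11.26 in MUM2B CANT1, 12.03 and 12.03 in wild type OCM1 and 11.52 and 11.49 in OCM1 CANT1 cells.

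All 4 genes of replicated chromatin and histone supply were called lower in MUM2B, and CHAF1B, a subunit of the histone chaperone CAF-1, alone in OCM1. UHRF1, which brings DNA methylation to the new strand, had levels of 12.15 and 12.04 in wild type MUM2B and 11.60 and 11.03 in CANT1 cells, and fell 1.72-fold (adjusted p = 0.00699). In OCM1 its levels were 10.55 and 10.37 and 9.81 and 10.11, with no overlap, and the difference of −0.50 ± 0.17 just missed the threshold (0.0534). TIPIN, which protects stalled forks together with TIMELESS, had levels of 10.23 and 9.98 in wild type MUM2B and 9.28 and 8.79 in CANT1 cells, a 2.10-fold fall (log2 −1.07 ± 0.15, adjusted p = 0.000892). Its OCM1 levels of 9.22 and 9.20 and 9.08 and 9.08 differed by −0.13 ± 0.15, and the lines' effects differed by 0.94 ± 0.21 (0.00906). CLSPN, the claspin gene of the replication checkpoint, was called lower in MUM2B (−0.58 ± 0.14) and not in OCM1 (−0.38 ± 0.14).

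Among S phase regulators E2F2, a transcriptional activator of this gene set, was called lower in both lines. Its levels were 8.22 and 8.13 and 7.74 and 7.39 in MUM2B and 8.49 and 8.51 and 7.89 and 7.96 in OCM1, with falls of 0.60 ± 0.12 and 0.57 ± 0.12 (adjusted p = 0.00423 and 0.00498). E2F1 passed in neither (−0.22 ± 0.11 and −0.11 ± 0.11). FAM111B (probe set 11739932_a_at), a protease gene expressed with the cell cycle, had levels of 8.38 and 8.25 in wild type and 7.31 and 6.42 in CANT1 cells of MUM2B, a difference of −1.45. In OCM1 it lay at 6.90 and 6.58 and 6.81 and 6.78, all under the signal of 100. On these 8 arrays FAM111B reached that signal on both wild type MUM2B arrays and on CANT1 replicate 2, so it entered the test through the groups where it was high, and its fold and p are not read. Without it 34 of 49 members were called lower in MUM2B and 9 differed between the lines.

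Across the 50 genes, 16 were called lower in both lines, which is 45.7% of the MUM2B calls and 72.7% of the OCM1 calls, and 9 in neither. Over all genes 1.84% were called lower in both, which is 17.3% of the MUM2B calls and 19.1% of the OCM1 calls. Since 70.0% of the members were called in MUM2B, a share of 72.7% among the OCM1 calls is close to that of the members as a whole. The test of the difference between the lines' effects called 10 members: 6 with a higher value in OCM1 (11.3% of all genes) and 4 with a lower value (10.6%). The first 6 were FAM111B, TIPIN, GINS3, GINS4, ORC6 and RFC1, and the other 4 were RRM2, PRIM2, MCM7 and POLA2. Read against those shares, counts of 6 and 4 of 50 are near the background. Median centring of the arrays left 6 of these calls, and leaving out single arrays left 3 to 14, the 3 without wild type replicate 2 of MUM2B or wild type replicate 3 of OCM1. Over 12 alternatives (quantile normalization, 2 offsets, the replicate block and each of the 8 arrays left out) the call was lost in 9 for POLA2, 7 each for GINS4 and RFC1, 6 for ORC6 and 4 each for GINS3, PRIM2 and MCM7. TIPIN kept its call in all 12, while RRM2 kept it there but reversed on its other probe set.

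**Figure D3:**
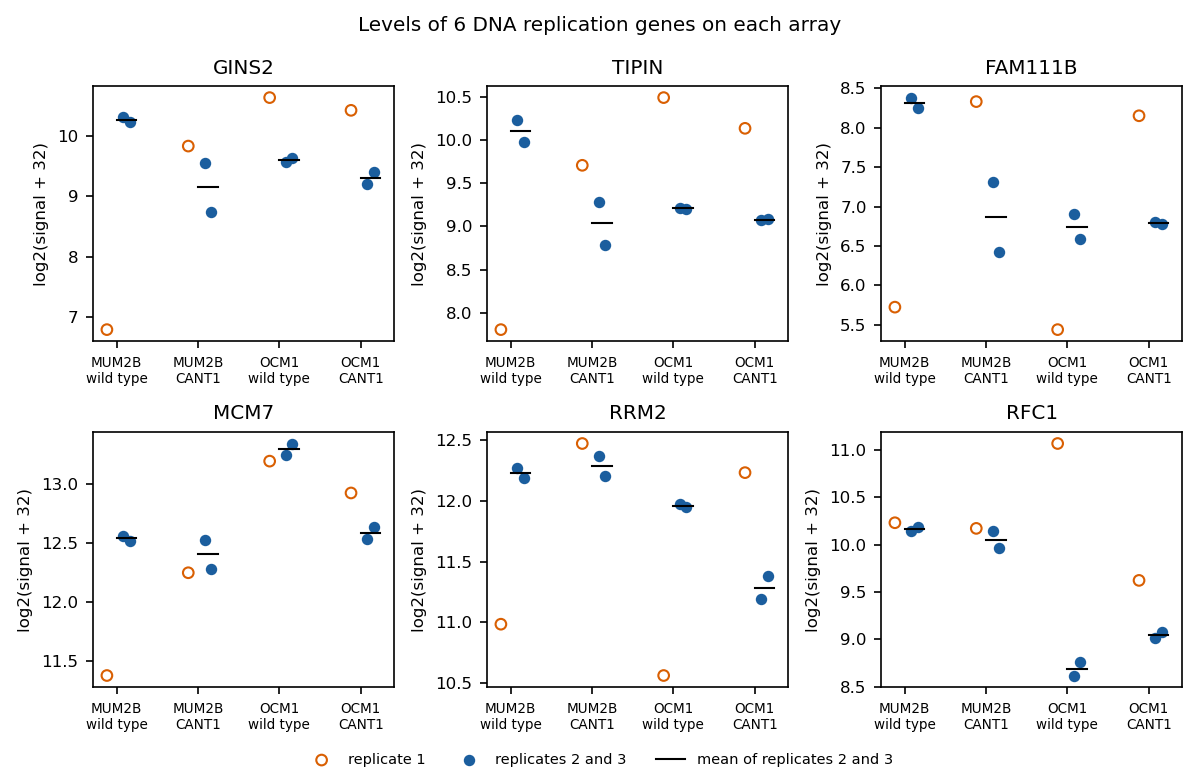
Level (log2 of scaled signal plus 32) of 6 genes on each array, by group; open points are replicate 1, filled points replicates 2 and 3, and the line is the mean of replicates 2 and 3. GINS2, TIPIN and FAM111B are lower in MUM2B CANT1 cells on replicates 2 and 3, MCM7 and, on the probe set in use, RRM2 are lower in OCM1 CANT1 cells, and RFC1 is higher in OCM1 CANT1 cells, while on replicate 1 wild type MUM2B is the lowest array for GINS2, TIPIN and MCM7.

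On replicate 1, with 1 array per group and no test, MUM2B showed the opposite sign. The 50 genes had a median CANT1 minus wild type difference of 1.40, and 49 lay above zero, where the median over all genes tested was −0.072. All 35 members called lower on replicates 2 and 3 lay above zero here. GINS2 had the largest value, 3.04, from 6.79 in wild type to 9.83 in CANT1 cells, followed by MCM10 (2.62), FAM111B (2.60) and POLE2 (2.54). RFC1 had the smallest, −0.059, from 10.23 to 10.17. The wild type array was the low one: it was the lowest of the 4 replicate 1 arrays for 45 of 50 genes, and its median level over the members, 8.99, lay beside 10.20 in MUM2B CANT1, 10.92 in wild type OCM1 and 10.39 in OCM1 CANT1 cells.

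In OCM1 the replicate 1 values were mixed. The median difference was −0.35, with 37 genes below zero and 13 above. CDT1 was lowest, −1.79, from 11.63 in wild type to 9.84 in CANT1 cells, and RFC1 (−1.44), RFC5 (−1.38) and RPA2 (−1.34) were next. FAM111B stood highest at 2.71, from 5.44 to 8.15, followed by RRM2 (1.67, from 10.56 to 12.23) and TK1 (1.57, from 10.52 to 12.09). The wild type array was thus high for most of the machinery, being the highest of the 4 for 34 genes. It was low for TK1 and, on the probe set in use, for RRM2. The other bright RRM2 probe set read 11.02 on it and 11.91 on the CANT1 array, a difference of 0.89. That 11.02 lay above wild type OCM1 replicates 2 and 3 on the same probe set, 10.06 and 9.58. FAM111B had a signal of 11.4 on the wild type replicate 1 array and 252.1 on the CANT1 one. It was too dim in wild type cells for its difference to be read. The wild type replicate 1 array is the one that stood apart from its line. Of the 22 members called lower on replicates 2 and 3, 16 lay below zero on replicate 1 and 6 above. Among all members 37 lay below zero and 13 above, a similar share, so the called members did not stand out from the rest here.

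The difference between the labelled sets was itself tested, with each replicate 1 array assumed to vary like the arrays of replicates 2 and 3. In MUM2B the CANT1 effect was higher on replicate 1 for 48 of 50 members (17.7% of all genes) and lower for 0 (18.1%), with a median of 1.86. The largest were GINS2 (4.16 ± 0.34, adjusted p = 3.16e-05), FAM111B (4.06 ± 0.38), MCM10 (3.49 ± 0.41) and POLE2 (3.36 ± 0.28), and the exceptions were RFC1 (0.050 ± 0.18, 0.858) and RPA2 (0.47 ± 0.20, 0.0963). In OCM1 12 members had a higher effect on replicate 1 (20.5% of all genes) and 6 a lower one (27.6%), with a median of 0.092. On the probe sets in use, FAM111B (2.66), RRM2 (2.34) and TK1 (2.09) had the largest increases, and RFC1 (−1.80) the largest decrease. The RRM2 value depends on the probe set. Its other bright one gave OCM1 differences closer together, 0.89 in the first labelled set against 0.19 in the second. FAM111B is counted in the 48 and the 12. Its signal on the wild type replicate 1 arrays was 20.9 in MUM2B and 11.4 in OCM1. It entered this test through the arrays where it was high, so its values here are not read. The OCM1 values rest on the wild type replicate 1 array, without which they cannot be formed. The 3' to 5' difference and the growth label moved with the set, and their part in these results was not tested.

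Across the 50 genes, the MUM2B differences of the 2 sets ran against each other, with Pearson's r of −0.648 and Spearman's rho of −0.626. Over all 12105 genes the MUM2B r was −0.624, near that of the members. That r does not measure the shift of the members as a set. The median difference between the sets in MUM2B was 1.86 over the members and −0.088 over all genes tested. In OCM1 r was −0.032 and rho −0.0066 over the members, and r was −0.212 over all genes. The points are genes of the same arrays and are not independent, and no p is given.

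**Figure D4:**
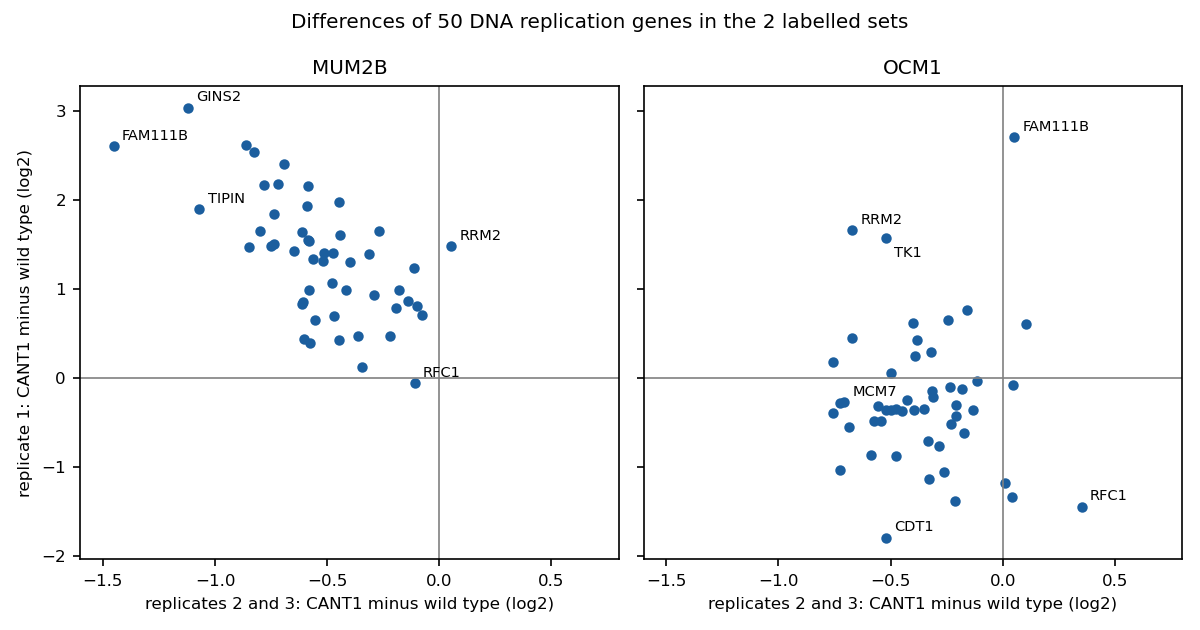
CANT1 minus wild type on replicates 2 and 3 (horizontal axis, log2) against the same difference on replicate 1 (vertical axis, log2), 1 point per gene, for MUM2B at the left and OCM1 at the right. In MUM2B the points fall from GINS2, at −1.12 and 3.04, toward RFC1, at −0.11 and −0.059, and in OCM1 they form no line (r = −0.032).

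The lines were also compared with each other. Between wild type cells on replicates 2 and 3, 32 of 50 members and 7829 of 12105 genes were called in either direction, a similar share. Between CANT1 cells 21 members and 8025 genes were called, a smaller share of the members. In wild type cells on replicates 2 and 3, OCM1 was called higher than MUM2B for 6 members (35.2% of all genes) and lower for 26 (29.5%), with a median of −0.28. MCM7 had the largest increase (0.75 ± 0.10, adjusted p = 5.34e-05), with RFC2 (0.59 ± 0.13), RPA1 (0.55 ± 0.092) and POLE (0.53 ± 0.14) next. UHRF1 (−1.64 ± 0.17, adjusted p = 4.14e-06), RFC1 (−1.47 ± 0.10) and GINS3 (−1.36 ± 0.15) were far lower in OCM1, and their levels on these arrays, given above, do not overlap between the lines. FAM111B stood at −1.57 with its OCM1 arrays under the signal of 100. In CANT1 cells OCM1 was called higher for 5 members (38.2%) and lower for 16 (28.1%), with a median of −0.12 where all genes stood at 0.12. The largest were RPA1 (0.75 ± 0.092), TYMS (0.57 ± 0.12), POLE (0.48 ± 0.14) and RFC3 (0.37 ± 0.13) upward and MCM5 (−1.38 ± 0.12), UHRF1 (−1.35 ± 0.17), POLA2 (−1.05 ± 0.092) and RFC1 (−1.01 ± 0.10) downward. TYMS levels behind this were 12.999 and 13.07 in OCM1 CANT1 and 12.65 and 12.27 in MUM2B CANT1 cells, against 13.48 and 13.38 and 12.96 and 12.85 in wild type. Over the 12 alternatives named above, the difference between CANT1 cells ran from 0.17 to 0.58 for RFC3 and from 0.26 to 0.70 for POLE.

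Over all 12 arrays fewer members told the lines apart, and each count lies under the share of all genes. In wild type cells RFC2 (1.28 ± 0.40), MCM7 (1.11 ± 0.26), POLE (0.91 ± 0.26) and E2F2 (0.75 ± 0.26) were called higher in OCM1 (19.1% of all genes) and 0 lower (13.9%). In CANT1 cells RPA1 was called higher (0.79 ± 0.21, 21.2%) and MCM5 (−1.05 ± 0.32) and RPA3 (−0.78 ± 0.19) lower (16.1%). MCM7, the gene with the smallest adjusted p of these in wild type cells (0.00935), had a mean level of 13.26 ± 0.076 SD in OCM1 and 12.15 ± 0.67 SD in MUM2B (n = 3 arrays each). These calls were also read over 16 alternatives: quantile normalization, 2 offsets, the replicate block and each of the 12 arrays left out. The call was lost in 13 for E2F2, 6 for RFC2, 5 for MCM5, 3 for RPA1 and 2 for POLE. MCM7 and RPA3 kept theirs in all 16. Without wild type replicate 1 of MUM2B, 21 members told the wild type lines apart, 18 of them lower in OCM1, and 14 told the CANT1 lines apart. No share of all genes was computed for this fit, so these counts are not read against a background. On replicate 1 the wild type difference had a median of 1.60, with 47 members higher in OCM1.

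Other genes of the same processes, listed by function, are given to place the 50. On replicates 2 and 3 of MUM2B, 8 of 21 other origin, helicase and fork genes were called lower and 0 higher, with MCMBP, a partner of the MCM ring (−0.60 ± 0.15), GMNN, the CDT1 inhibitor geminin (−0.53 ± 0.13), and DONSON (−0.53 ± 0.10) the largest. In OCM1 the same list had 6 lower and 1 higher, led by DBF4B (−0.50 ± 0.11) and WDHD1 (−0.49 ± 0.088). Other polymerase and maturation genes numbered 7 lower and 1 higher of 12 in MUM2B and 3 lower and 2 higher in OCM1. The 1 higher in MUM2B was POLD4, a small subunit of polymerase delta (0.86 ± 0.12), and it was also higher in OCM1 (0.37 ± 0.12), while RNASEH2A, a subunit of the enzyme that removes RNA from DNA, was lower in both (−0.38 ± 0.11 and −0.68 ± 0.11). Other nucleotide and histone supply genes numbered 8 lower of 16 in MUM2B, led by the CTP synthase CTPS1 (−0.71 ± 0.11), and 4 lower and 1 higher in OCM1, led by the nucleoside transporter SLC29A1 (−0.59 ± 0.13). On replicate 1, with no test, each gene named for MUM2B had the opposite sign. MCMBP stood at 1.15, GMNN at 1.38, DONSON at 0.83, POLD4 at −0.14, RNASEH2A at 1.18 and CTPS1 at 1.48. In OCM1 the signs were mixed, with DBF4B at 0.22, WDHD1 at −0.58, POLD4 at 1.40, RNASEH2A at 0.083 and SLC29A1 at 0.35.

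Regulators of the G1 to S step and genes of mitosis were read in the same way. Of 31 cyclins, kinases and E2F or RB factors, 14 were called lower and 3 higher in MUM2B, and 8 lower and 4 higher in OCM1. CCNE2, the S phase entry cyclin E2, had the largest fall in MUM2B (−1.53 ± 0.23, adjusted p = 0.00124), and CDK2, its kinase partner, in OCM1 (−0.96 ± 0.13, 0.00044). The inhibitor gene CDKN2D rose in MUM2B (0.88 ± 0.12), and cyclin D1, CCND1, rose in OCM1 (0.84 ± 0.097) while MYC fell (−0.77 ± 0.11). Of 34 mitosis genes 3 were called lower and 1 higher in MUM2B, with a median of −0.068, and 25 lower and 0 higher in OCM1, with a median of −0.44. The largest OCM1 falls were UBE2C, an E2 enzyme of the anaphase-promoting complex (−1.01 ± 0.10), CENPF, a kinetochore gene (−0.85 ± 0.092), and the cyclin gene CCNB2 (−0.79 ± 0.11). The test of the difference between lines called 12 of the 34 lower in OCM1 and 0 higher. All of these counts are from replicates 2 and 3. On replicate 1, with no test, MUM2B had the opposite signs, 2.61 for CCNE2 and −0.65 for CDKN2D. In OCM1 the values were 1.07 for CDK2, 0.078 for CCND1, −0.0060 for MYC, −1.53 for UBE2C, 0.47 for CENPF and 0.74 for CCNB2.

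**Figure D5:**
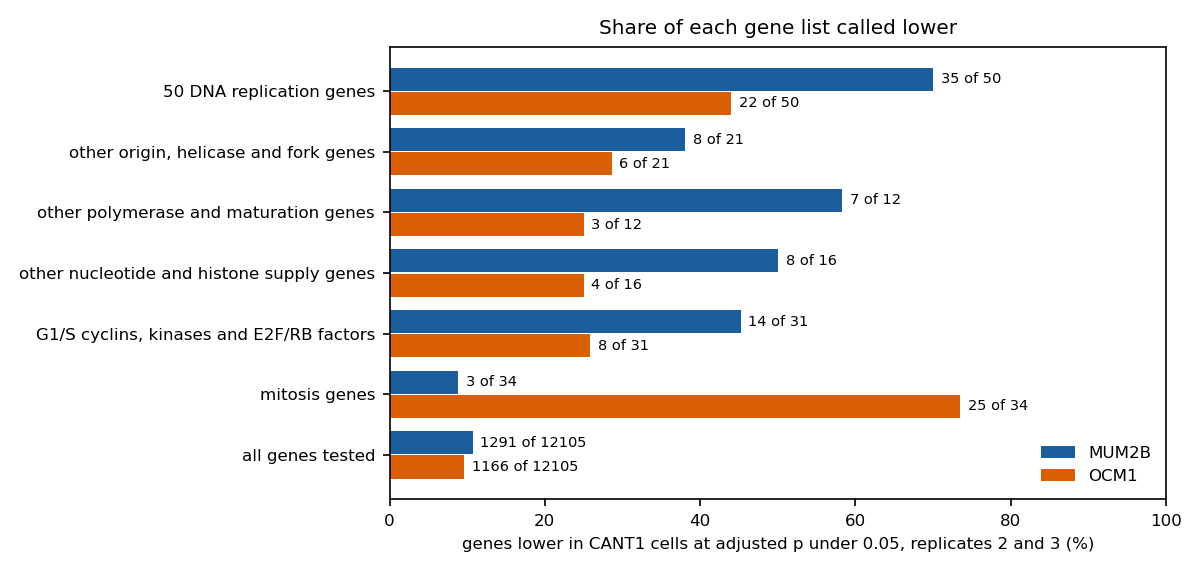
Percent of each gene list called lower in CANT1 cells on replicates 2 and 3 (horizontal axis), in MUM2B and OCM1, with the counts beside the bars. The 50 DNA replication genes stand at 70.0% in MUM2B and 44.0% in OCM1, mitosis genes at 8.82% and 73.5%, and all genes tested at 10.7% and 9.63%.

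The other probe sets of the 50 genes gave the same sign as the ones in use for 63 of 65 on MUM2B replicates 2 and 3, 61 on OCM1 replicates 2 and 3, 63 on MUM2B replicate 1 and 57 on OCM1 replicate 1. On replicates 2 and 3 the exceptions were RRM2 in both lines, RFC1 in MUM2B and RPA1, RPA2 and TIPIN in OCM1. Of the probe sets in use, 13 end in _s or _x, which mark probes shared with other transcripts. Markers of other cell types were read on the same arrays, and several were bright. MUM2B held CDH5, the endothelial cadherin gene, at a signal of 2385 to 4634, and the keratin genes KRT8 at 2929 to 7929 and KRT18 at 11587 to 15102. OCM1 held LUM, a fibroblast proteoglycan gene, at 1222 to 1437 on all arrays but wild type replicate 1 (62.2). Others stayed dim on all 12 arrays, among them EPCAM at 25.3 to 61.4, PTPRC at 14.2 to 18, CD14 at 26.2 to 42.6 and DCN at 31.7 to 47.8. The summed signal of 6 endothelial markers was 2827 to 4287 in wild type MUM2B and 3296 to 5134 in CANT1 cells, and that of 6 epithelial markers 15038 to 23391 and 17797 to 22512.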

How the data were processed

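The deposited values, 1 per probe set on each of 12 arrays, range from 2.48 to 15.16 and are read here as log2 intensities. The submitters' processing notes name MAS5 and give neither the log base nor a normalization of the deposited log2 values. Each array was taken to 2 to the power of its values, scaled to a 2% trimmed mean of 500 and returned to log2 after adding 32. Of 49395 probe sets, 44988 named 1 gene by the platform annotation, and the probe sets naming several genes (1832) or none (2473) and 102 controls were left out. Genes with a signal of at least 100 on 3 arrays of a fit were tested, 12715 on all arrays and 12105 on replicates 2 and 3.

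Tests were moderated linear models of limma 3.58.1, run in R 4.3.3: 4 groups plus the labelled set on 12 arrays (7 residual degrees of freedom), 4 groups on replicates 2 and 3 (4), and a group-by-set fit for the difference between sets (4). The scripts were tested on simulated data. Precision is limited by the number of arrays. The members, gene lists and tests were chosen with earlier results of these data known. Members whose array values are printed had the 8 largest called differences on replicates 2 and 3, led another comparison (up to 5 called or the 3 smallest p-values over 12 arrays, 4 each way between lines, the extremes on replicate 1), opposed the rest, or stood for their role. TK1 was added after its values were seen. Samples with equal replicate numbers were not treated as paired, since the labels do not say that they share a culture. The correlations of same-numbered deviations ran from −0.136 to 0.221, and with so few arrays they cannot show that pairing is absent. Alternatives covered scaling, offset, filter, probe sets, array weights, intensity trend, the replicate block, thresholds and each array left out.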

Additional observations from a re-analysis of the deposited data

Results flagged for a closer look

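The CANT1 effect differed between the lines, by the test of the difference on replicates 2 and 3, for 10 of the 50 genes, 6 with a higher value in OCM1 and 4 with a lower one, where 11.3% and 10.6% of all genes were called. These counts are near the background. Values are OCM1 minus MUM2B. FAM111B stood at 1.505, TIPIN at 0.94, GINS3 at 0.81, GINS4 at 0.69, ORC6 at 0.66 and RFC1 at 0.46. RRM2 stood at −0.73, PRIM2 and MCM7 both at −0.57, and POLA2 at −0.41. FAM111B was under a signal of 100 in OCM1, so its value compares MUM2B with a dim gene. RRM2 stood at 0.82 on its other bright probe set, the opposite sign.

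The CANT1 effect differed between the labelled sets, by the test of that difference, for 48 of 50 genes in MUM2B, all with a higher effect on replicate 1, where 17.7% of all genes were called higher. In OCM1 it differed for 18, 12 higher and 6 lower, against 20.5% and 27.6% of all genes, so those counts do not stand above the background. In MUM2B the largest values, replicate 1 minus replicates 2 and 3, were GINS2 at 4.16, FAM111B at 4.06, MCM10 at 3.49 and POLE2 at 3.36. In OCM1 they were FAM111B at 2.66, RRM2 at 2.34 and TK1 at 2.09, and RFC1 at −1.80. Each of these rests on 1 wild type and 1 CANT1 array of replicate 1. FAM111B is counted here but had arrays under a signal of 100 in both lines. It entered the test through the arrays where it was high, so its values are not read. The RRM2 value depends on the probe set, since the other bright one gave OCM1 differences of 0.89 in the first labelled set and 0.19 in the second.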

How the results depend on the processing

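On replicates 2 and 3 the 35 calls in MUM2B became 20 at 1.5-fold or more, 19 at an adjusted p under 0.01 and 14 to 40 with an array left out, the extremes being without CANT1 replicate 3 and without CANT1 replicate 2. The 23 in OCM1 became 9, 11 and 11 to 30, the lowest without CANT1 replicate 2 and the highest without either MUM2B CANT1 array. The 10 line differences became 6 under median centring, 6 at 1.5-fold, 3 at p under 0.01 and 3 to 14 with an array left out. Among CANT1 cells the 21 line calls became 11 at 1.5-fold. Over 12 arrays the 4 line calls in wild type cells became 2 under median centring, 2 without the filter, 1 without probe sets ending in _s or _x, 2 on only the arrays compared, 1 at p under 0.01 and 1 to 21 with an array left out. The 3 in CANT1 cells became 21 on only the arrays compared, 0 at p under 0.01 and 1 to 14 with an array left out. Array weights, whose estimate did not converge on 12 arrays, gave 16 calls in MUM2B, 21 in OCM1, 4 line differences, 27 in wild type cells and 24 in CANT1 cells. The replicate 1 median in MUM2B was 1.52 on the deposited values and 1.01 as the mean over probe sets. With the replicate block the 12-array wild type line calls went from 4 to 2, and no other count of calls moved by over 1.5 times. Of the counts of calls and the replicate 1 medians, 268 alternatives stayed close and 43 moved. Of those for named genes 537 kept their call, 82 lost it and 0 changed sign. These covered quantile normalization, the 2 offsets, the replicate block and arrays left out. Other probe sets were not among them, and RRM2 changed sign on its other bright one. FAM111B was too dim to test without either wild type MUM2B array of replicates 2 and 3. No share of all genes called is given for these alternatives, and the cause of these shifts was not tested.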
